A study of Mus musculus with 8 samples.

Results

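The 52 genes described here were at least 2-fold higher in mouse embryonic fibroblasts (MEFs) expressing EZHIP and in MEFs expressing histone H3.3 K27M than in control MEFs, and less than 2-fold higher in MEFs that lack EED. They were chosen by these 3 measured differences, each the log2 of a group's mean expression value plus 1 minus that of control (a difference of 1 is 2-fold), among the 875 genes of the deposited table, of which 495 were higher in EZHIP than in control cells. The limits left 57 genes, and 5 of them (Foxo6, Kcnj15, Serpinb9b, Slc13a5 and Timp3) were set aside by name. Their symbols begin with the gene family prefixes Fox, Kcn, Serpin, Slc and Timp. The differences from control are therefore a description of the choice, and calls and intervals given for them below are not tests of it. The label that these genes rise with the inhibitors and not with EED loss holds only as a limit of 2-fold with the 1 added. In 32 of the 52 genes both EED-null libraries lay above both control libraries (53.7% of all 875 genes had that order). As plain ratios of means, Hbegf and Pde1a were 2.01- and 2.12-fold higher in EED-null than in control cells. For Saa3, which had no control reads, such a ratio is not defined.

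Polycomb repressive complex 2 (PRC2) places methyl groups on lysine 27 of histone H3, a mark of silent developmental genes, and EED is the core subunit that binds the trimethylated mark and is needed for the complex to work. EZHIP, a protein made in posterior fossa type A ependymoma, and the K27M form of H3, found in diffuse midline glioma, both inhibit PRC2. The first genes below are best known from other responses, and whether PRC2 acts on them was not tested here. Jun, Atf3, Cebpb and their relatives are transcription factors that cells switch on within minutes to hours of growth factors, stress or damage. Cdkn1a and Gadd45a are among the brakes on division, and the Tribbles genes among the signalling regulators, that such responses switch on.

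All 8 libraries, 2 for each of the 4 groups, came from MEFs whose Eed alleles carry loxP sites. Control cells had these alleles intact, EZHIP cells carried a lentiviral human EZHIP transgene, K27M cells a lentiviral H3.3 K27M transgene, and EED-null cells were a single clone in which Cre had removed the floxed part of Eed. According to the paper's methods, transduced cells were selected with puromycin, and the labels do not say whether control cells received an empty vector. Effects of transduction and selection therefore cannot be told apart from those of the transgenes, and were not tested. Likewise, effects of the single EED-null clone cannot be told apart from those of EED loss, and were not tested. Nothing in the labels says that the replicates were separate cultures, so p-values measure only the spread between these samples. With 2 libraries against 2, an exact permutation test cannot go below p = 0.333, so genes were tested with limma over the whole table.

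The values are estimated reads divided by 1 size factor per library, not scaled by gene length, so they were compared between groups within a gene. The libraries held 209390 to 424562 estimated reads on the listed genes and 6275 to 31224 on the 52 genes, and 48 of the 52 had over 3 reads in every library. The deposited table has no row for Eed, and the deletion was not checked here. Of 11 fibroblast markers 3 were listed, and their summed value was 17719 to 18112 (control), 6460 to 6934 (EZHIP), 5560 to 5876 (K27M) and 5723 to 5805 (EED-null). The collagen gene Col3a1 carried most of that sum in control cells, and of the other two, Dcn rose in K27M cells (a difference from control of 3.11) and Fap was not called there (0.59). In bulk RNA, a change in the number of cells of a type and in the RNA of each cell cannot be told apart. When the libraries were rescaled on the listed genes themselves, the median difference of all 875 genes from control shifted by -0.31 (EZHIP), -0.45 (K27M) and -0.39 (EED-null). On that scale all 52 genes were still higher than control in both inhibitor lines, but only 30 by at least 2-fold in EZHIP and 39 in K27M cells. Rescaling treats the median listed gene as unchanged. This need not hold for genes listed because they changed in EZHIP cells, of which 495 were higher, so downward shifts can follow from that selection.

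Of the 52 genes, 41 had an entry in the RefSeq promoter table (GRCm38.p6), under the 80% needed, so no property of promoters was compared over the group. For 5 genes whose values carry the patterns described here, the 250 bases before the annotated start are printed 5′ to 3′ on the strand of the gene, with CG dinucleotides, the sites of DNA methylation, in capitals. Jun (chr4:95052223-95052472, minus strand), Atf3 (chr1:191183334-191183583, minus strand) and Trib3 (chr2:152344061-152344310, minus strand) stand for the stress-response genes, Upk3b (chr5:136038246-136038495, plus strand) had the largest rise in K27M cells, and Saa3 (chr7:46715677-46715926, minus strand) had no reads in control cells.
Jun: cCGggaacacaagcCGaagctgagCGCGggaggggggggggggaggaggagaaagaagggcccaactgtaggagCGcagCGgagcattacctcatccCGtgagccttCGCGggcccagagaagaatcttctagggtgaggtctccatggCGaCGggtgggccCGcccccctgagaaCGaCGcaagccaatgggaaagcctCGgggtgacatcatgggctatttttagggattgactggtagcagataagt
Atf3: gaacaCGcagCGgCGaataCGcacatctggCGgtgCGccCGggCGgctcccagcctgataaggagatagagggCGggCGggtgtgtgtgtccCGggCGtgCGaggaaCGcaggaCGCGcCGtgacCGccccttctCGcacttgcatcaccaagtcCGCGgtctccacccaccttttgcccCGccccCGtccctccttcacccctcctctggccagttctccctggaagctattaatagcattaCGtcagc
Trib3: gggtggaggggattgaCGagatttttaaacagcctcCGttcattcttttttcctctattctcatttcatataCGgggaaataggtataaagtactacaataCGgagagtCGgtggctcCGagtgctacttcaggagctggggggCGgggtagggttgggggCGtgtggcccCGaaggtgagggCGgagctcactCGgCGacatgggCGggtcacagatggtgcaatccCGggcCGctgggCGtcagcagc
Upk3b: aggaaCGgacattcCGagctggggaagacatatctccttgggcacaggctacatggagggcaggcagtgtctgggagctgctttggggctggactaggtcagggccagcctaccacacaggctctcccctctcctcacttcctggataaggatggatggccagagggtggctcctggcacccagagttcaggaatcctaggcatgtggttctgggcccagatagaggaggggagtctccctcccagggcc
Saa3: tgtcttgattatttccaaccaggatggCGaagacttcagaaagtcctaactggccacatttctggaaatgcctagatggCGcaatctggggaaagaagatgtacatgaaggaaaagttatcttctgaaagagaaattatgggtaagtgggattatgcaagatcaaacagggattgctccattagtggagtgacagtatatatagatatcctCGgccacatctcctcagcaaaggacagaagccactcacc
The windows of Jun, Atf3 and Trib3 held 15, 24 and 16 CG dinucleotides. Those of Upk3b and Saa3 held 2 and 3, against a median of 6 over all 27025 promoters of the table. The letters TGATGCAA, a composite site of C/EBP and ATF proteins, were searched on both strands and were present in 0.818% of all promoters. They stood in the Atf3 window on its minus strand, 110 bases before the start, and in the windows of Gadd45g and Avil. The AP-1 site TGACTCA, present in 4.43% of all promoters, stood in the windows of Lif and Aldh1a1, and TATAAA, present in 13%, stood in those of Trib3, Cyp26b1, Gadd45g and Gch1. Such matches describe the letters and are not evidence of binding.

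Across the 52 genes, the median difference from control was 1.44 (EZHIP), 1.85 (K27M) and 0.41 (EED-null) on the log2 scale. Over all 495 genes higher in EZHIP cells, which were not held to the K27M and EED-null limits, these medians were 2.08, 1.61 and 1.92. The replicate libraries were close to each other, with medians of 1.42 and 1.49 (EZHIP), 1.85 and 1.84 (K27M) and 0.43 and 0.33 (EED-null). Both libraries of EZHIP lay above both control libraries in all 52 genes (56.6% of all listed genes), as did both of K27M (57.4%). The median control value was 82.1, against 30.7 for the 495 genes, and 2 of the 52, Saa3 and Pde1a, had at most 3 reads in both control libraries. By limma, 51 of the 52 were called higher in EZHIP cells (56.0% of all 875 genes) and 52 in K27M cells (41.4%) at an adjusted p under 0.05 and at least 2-fold, counts that the choice of the genes sets.

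**Figure D1:**
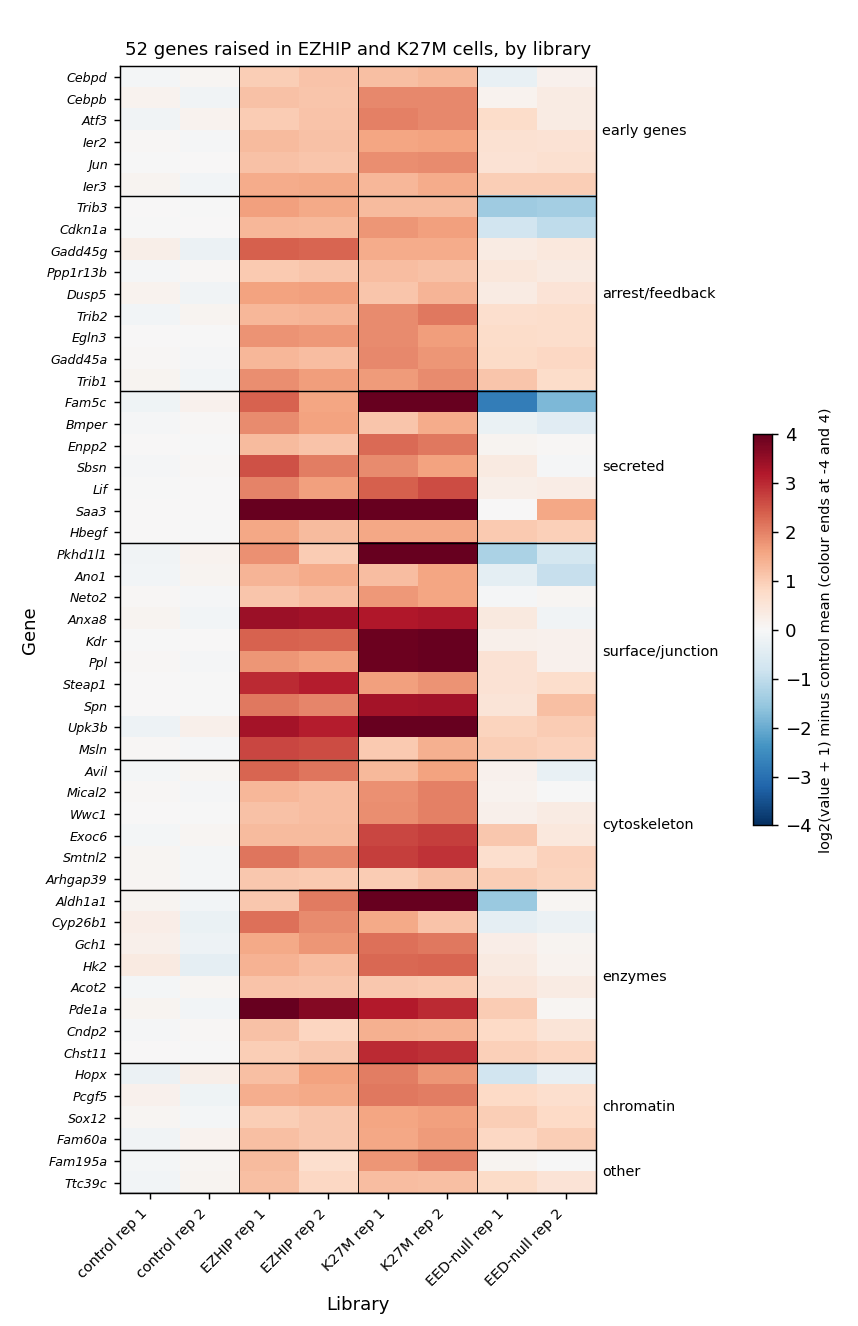
Log2(value + 1) minus the control mean of each of the 52 genes (rows, grouped by role) in each of the 8 libraries (columns), with the colour ending at -4 and 4. All 4 EZHIP and K27M columns are red throughout, while the EED-null columns range from -2.21 to 0.9999 by group mean.

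The early genes and stress transcription factors are 6 of the members, and their median differences from control were 1.14 (EZHIP), 1.73 (K27M) and 0.56 (EED-null). Jun, the DNA-binding partner of Fos in AP-1, had values of 732 and 752 (control), 1665 and 1600.5 (EZHIP), 2675 and 2741 (K27M) and 1116 and 1165 (EED-null) (ENSMUSG00000052684.3, chr4:94715725-94718913, minus strand, mm9). The 4 groups did not overlap, and stood in the order control, EED-null, EZHIP and K27M. Jun was 2.2-fold higher than control in EZHIP, 3.65-fold in K27M and 1.54-fold in EED-null cells, and its K27M minus EZHIP difference was 0.73, SE 0.09, adjusted p = 0.000518.

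Atf3, a factor of the stress response that pairs with Jun, had values of 86.2 and 105 (control), 193 and 209 (EZHIP), 384 and 366 (K27M) and 158 and 119 (EED-null). The order of the groups was that of Jun, with differences from control of 1.06 (EZHIP), 1.96 (K27M) and 0.53 (EED-null). Cebpb, a C/EBP factor of inflammation and fat cell development, had values of 243 and 201 (control), 501 and 479 (EZHIP), 834 and 843 (K27M) and 247 and 277 (EED-null). Its EED-null libraries stood just above control, and its K27M libraries far above those of EZHIP (0.77, SE 0.13, adjusted p = 0.00181). Its relative Cebpd differed from control by 1.05 (EZHIP), 1.25 (K27M) and -0.04 (EED-null), and its control and EED-null libraries overlapped.

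Ier2, an early response gene, had values of 649.8 and 596 (control), 1494 and 1401 (EZHIP), 1875 and 1914 (K27M) and 943 and 937 (EED-null). Ier3, an early gene that modulates cell survival, had values of 211 and 179 (control), 549 and 557 (EZHIP), 485 and 541 (K27M) and 383 and 387 (EED-null). Ier2 thus had the group order of Jun, whereas the EZHIP libraries of Ier3 lay above those of K27M, and its difference of EED-null from control, 0.98, was just under the limit. In K27M against EZHIP cells, Jun, Atf3, Cebpb and Ier2 passed the adjusted p with rises under 2-fold, and Ier3 and Cebpd had adjusted p = 0.429 and 0.337.

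**Figure D2:**
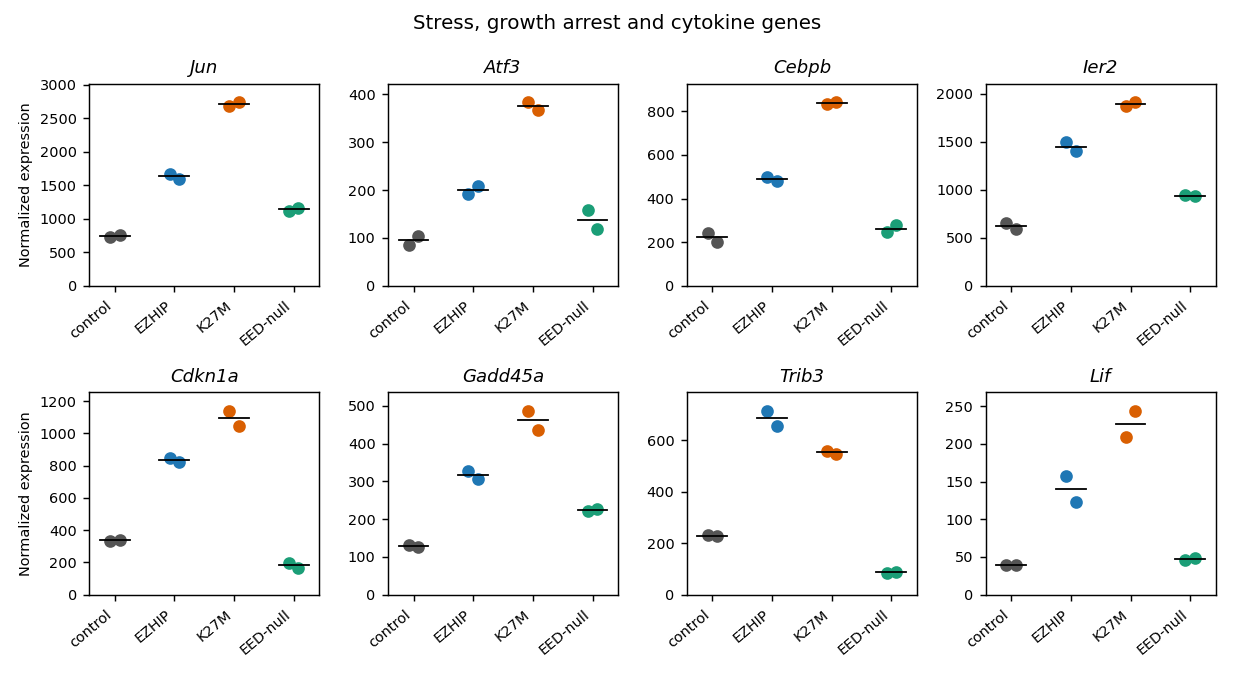
Normalized expression (vertical axis, linear from 0) of Jun, Atf3, Cebpb, Ier2, Cdkn1a, Gadd45a, Trib3 and Lif in the 4 groups, with a point per library and a bar at the group mean. The EZHIP and K27M libraries lie above control in every panel, and the EED-null libraries of Cdkn1a and Trib3 lie under control.

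The next 9 genes were grouped as regulators of growth arrest and feedback, with median differences from control of 1.58 (EZHIP), 1.70 (K27M) and 0.43 (EED-null). Cdkn1a, which encodes the p21 inhibitor of cyclin-dependent kinases and is a target of p53, had values of 336 and 337 (control), 847 and 823 (EZHIP), 1141 and 1047 (K27M) and 195 and 167 (EED-null) (ENSMUSG00000023067.7, chr17:29227924-29237667, plus strand, mm9). EZHIP and K27M libraries were 2.48- and 3.25-fold above control in the mean, while EED-null libraries were 1.86-fold below it. Gadd45a, a growth arrest gene induced by DNA damage, had values of 132 and 125 (control), 327 and 307 (EZHIP), 487 and 436 (K27M) and 220.4 and 228 (EED-null). Its EED-null libraries lay between control and EZHIP, unlike those of Cdkn1a.

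Gadd45g, its relative, had values of 160.1 and 114 (control), 718 and 684 (EZHIP), 378 and 384 (K27M) and 172 and 183 (EED-null). It was higher in EZHIP than in K27M libraries (-0.88, SE 0.17, adjusted p = 0.00339), with EED-null libraries a little above control. The Tribbles genes encode pseudokinases that direct proteins to degradation and modulate signalling. Trib3, a target of the unfolded protein and amino acid responses, had values of 232 and 227 (control), 715 and 656 (EZHIP), 557 and 548 (K27M) and 84.6 and 88.2 (EED-null) (ENSMUSG00000032715.8, chr2:152163158-152169768, minus strand, mm9). It was 2.99-fold higher than control in EZHIP, 2.41-fold higher in K27M and 2.65-fold lower in EED-null cells. Trib1 and Trib2 had no such fall, with values of 194 and 150.2 for Trib1 and 104 and 107 for Trib2 in EED-null libraries. All 4 of these values were above the control libraries, which ranged from 84.1 to 96.5 for Trib1 and from 60.6 to 69.4 for Trib2.

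Dusp5, a phosphatase that switches off ERK kinases, differed from control by 1.61 (EZHIP), 1.22 (K27M) and 0.43 (EED-null). Egln3, a prolyl hydroxylase of the oxygen response, differed by 1.76 (EZHIP), 1.78 (K27M) and 0.71 (EED-null). Ppp1r13b, which encodes the p53-binding protein ASPP1, differed by 1.08 (EZHIP), 1.21 (K27M) and 0.40 (EED-null). In K27M against EZHIP cells, 3 of these 9 genes were higher (44.0% of all genes) and 2 lower (37.1%) by the adjusted p alone, each by under 2-fold.

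Both EED-null libraries lay below both control libraries in 7 genes, Fam5c, Trib3, Pkhd1l1, Cdkn1a, Ano1, Hopx and Bmper (38.6% of all listed genes had that order), and above in 32 (53.7%), and the 2 groups overlapped in 13 (7.66%). limma called 2 of the 7, Fam5c and Trib3, lower in EED-null than in control cells, against 25.1% of all genes, and after rescaling Cdkn1a, Ano1 and Pkhd1l1 as well. The rule used this contrast, so the counts describe the choice. After rescaling on the listed genes, both EED-null libraries lay below control in 18 genes and the EED-null mean was below control in 25 instead of 11. The direction of a small EED-null difference thus depends on the scale. The share of all genes with these orders is not given on the rescaled scale. The 14 genes whose EED-null mean passed from above to below control were Anxa8, Cebpb, Enpp2, Fam195a, Gadd45g, Gch1, Hk2, Kdr, Lif, Mical2, Neto2, Ppl, Sbsn and Wwc1.

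**Figure D3:**
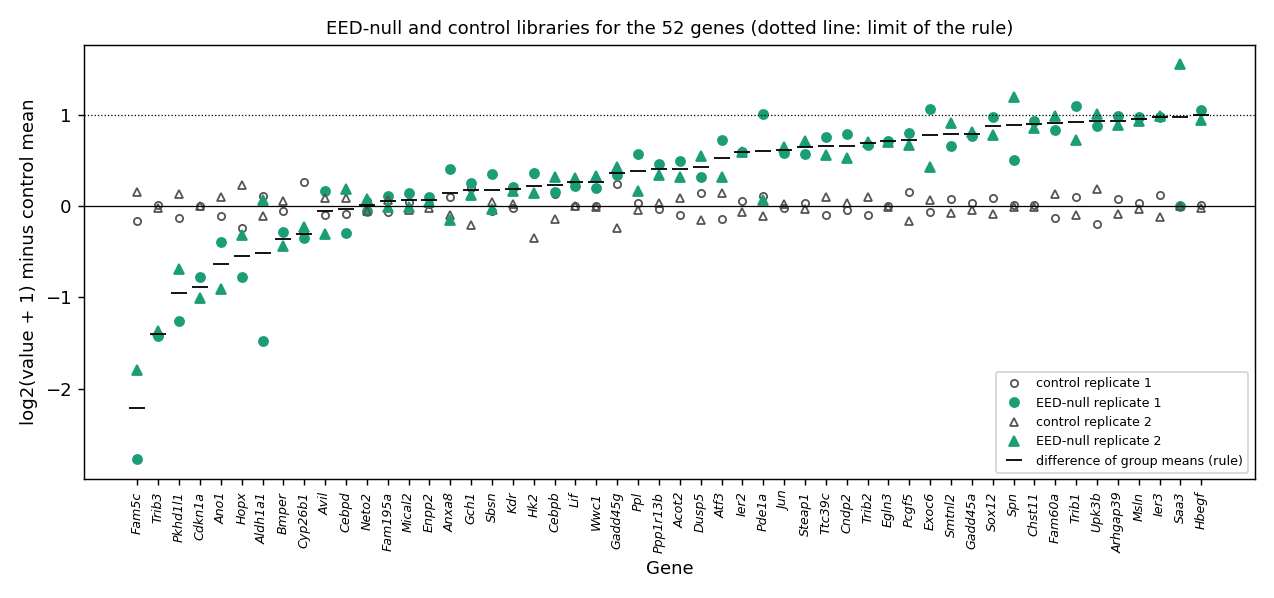
Log2(value + 1) minus the control mean of each of the 52 genes (horizontal axis, ordered by the EED-null difference) for the control libraries (open symbols) and EED-null libraries (filled symbols), with a dash at the difference of the group means. Differences run from -2.21 for Fam5c to 0.9999 for Hbegf, and the dotted line marks the limit of 2-fold.

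Both EED-null libraries also lay below both EZHIP libraries in all 52 genes (39.8% of all listed genes) and below both K27M libraries in all 52 (45.5%). limma called 31 lower than EZHIP (19.8%), 40 lower than K27M (27.8%) and 29 lower than both (9.49%). The rule fixes these directions, and they held for the means of all 52 genes after rescaling.

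The secreted factors are 7 genes with median differences of 1.82 (EZHIP), 2.19 (K27M) and 0.17 (EED-null). Lif, a cytokine of the interleukin-6 family, had values of 39 and 39.1 (control), 157 and 123.1 (EZHIP), 209.6 and 244 (K27M) and 45.7 and 48.5 (EED-null). Control and EED-null libraries lay close together, and K27M libraries lay above EZHIP libraries (0.70, SE 0.15, adjusted p = 0.00572). Hbegf, a ligand of the EGF receptor, had values of 71.9 and 70.1 (control), 211 and 173 (EZHIP), 209 and 208 (K27M) and 148 and 138 (EED-null). It is the member nearest to the EED-null limit, with a difference of 0.9999.

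Enpp2, the enzyme autotaxin that makes lysophosphatidic acid, had values of 171 and 165 (control), 402 and 370.5 (EZHIP), 815 and 726 (K27M) and 180.2 and 173 (EED-null). Its rise over control was larger in K27M than in EZHIP cells (0.99, SE 0.11, adjusted p = 0.000262), just under 2-fold and so not called, and passed 2-fold without EZHIP replicate 1 (1.05) or K27M replicate 2 (1.08). Saa3, an acute-phase serum amyloid, had values of 0 and 0 (control), 18.9 and 29.6 (EZHIP), 74.2 and 63.8 (K27M) and 0 and 1.94 (EED-null). Control libraries held no reads, so against 3 reads per library Saa3 was at least 9.18-fold higher in EZHIP and at least 26.1-fold higher in K27M cells. Its call in K27M against EZHIP cells (1.498, SE 0.50, adjusted p = 0.0305) was lost with a pseudocount of 0.1 (1.53, adjusted p = 0.331). By the adjusted p it was also lost without EZHIP replicate 1 (difference 1.19), without K27M replicate 1 (1.39) and without K27M replicate 2 (1.61).

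Fam5c, a secreted protein best known from the nervous system, had values of 5.13 and 6.64 (control), 34.3 and 19.4 (EZHIP), 156 and 169.6 (K27M) and 0 and 0.969 (EED-null). It was 6.06-fold higher in K27M than in EZHIP libraries, and its EED-null libraries held 1 read in all against 14 in control, a ratio of control to EED-null of 10.5 (95% interval 1.6 to 446) (exact binomial interval, for counting error only). The K27M minus EZHIP difference was 2.61, SE 0.39, adjusted p = 0.00106. Bmper, which binds bone morphogenetic proteins, differed from control by 1.76 (EZHIP), 1.31 (K27M) and -0.36 (EED-null). Sbsn, a protein of stratified epithelia, differed by 2.32 (EZHIP), 1.74 (K27M) and 0.17 (EED-null).

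Cell surface and junction proteins are 10 genes, and their median differences were 2.19 (EZHIP), 3.28 (K27M) and 0.29 (EED-null). Upk3b, a uroplakin made by urothelium and mesothelium, had values of 13.3 and 17.7 (control), 162 and 145 (EZHIP), 2065 and 2699.7 (K27M) and 29.1 and 32 (EED-null) (ENSMUSG00000042985.6, chr5:136514366-136521173, plus strand, mm9). It was 9.88-fold higher than control in EZHIP, 153-fold in K27M and 1.97-fold in EED-null cells, and 15.5-fold higher in K27M than in EZHIP cells (3.94, SE 0.19, adjusted p = 1.12e-05). Msln, the mesothelial surface protein mesothelin, had values of 402 and 385 (control), 2503 and 2402 (EZHIP), 823 and 1057 (K27M) and 776 and 751 (EED-null) (ENSMUSG00000063011.6, chr17:25885559-25891272, minus strand, mm9). The order of the inhibitors was the opposite here, with EZHIP 2.61-fold above K27M (-1.39, SE 0.14, adjusted p = 0.000183).

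Markers of mesothelium, listed after these values had been seen, had 7 of 13 genes in the table, and without Upk3b and Msln the summed value of the other 5 (Upk1b, Wt1, Bnc1, Gpm6a and Wnt4) was 11.8 to 18.5 (control), 290 to 316 (EZHIP), 3561 to 4247 (K27M) and 166 to 175 (EED-null). The sum hides differences between markers. Of the 7, EZHIP cells had 7 called higher than control (56.0% of all genes), K27M cells 6 (41.4%) and EED-null cells 4 (39.9%). In K27M against EZHIP cells, 5 were called higher (32.6%) and 2 lower (26.2%), Msln among the latter. Of the 7, 4 had at most 3 reads in both control libraries. Wt1, a defining mesothelial factor, had values of 0 and 0.738 (control), 26 and 31.9 (EZHIP), 1013 and 1277 (K27M) and 58.2 and 62 (EED-null). The part of these markers in the values of Upk3b and Msln was not tested.

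Pkhd1l1, a large membrane protein, had values of 13.3 and 16.2 (control), 54.4 and 30.8 (EZHIP), 931 and 1119 (K27M) and 5.55 and 8.72 (EED-null). K27M libraries were 24.1-fold above EZHIP (4.61, SE 0.32, adjusted p = 4.07e-05), and EED-null libraries were 2.07-fold below control. Kdr, the VEGF receptor of endothelium, had values of 9.24 and 9.6 (control), 52.1 and 51.3 (EZHIP), 157 and 222 (K27M) and 11.1 and 10.7 (EED-null). Control and EED-null libraries stood close together, and K27M stood 3.66-fold above EZHIP (1.83, SE 0.17, adjusted p = 0.000136). Kdr was the one listed gene of 4 endothelial markers. Ppl, the desmosomal linker periplakin, was 5.29-fold higher in K27M than in EZHIP cells, from values of 39 and 36.9 (control), 131 and 121 (EZHIP), 591 and 742 (K27M) and 56.8 and 42.6 (EED-null).

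Steap1, a membrane metalloreductase-like protein, had values of 46.2 and 44.3 (control), 362 and 411 (EZHIP), 142 and 160.0 (K27M) and 67.9 and 74.6 (EED-null). Like Msln it was higher in EZHIP than in K27M libraries, 2.56-fold (-1.35, SE 0.12, adjusted p = 0.000117). Anxa8, an annexin that binds membranes, had values of 25.7 and 22.1 (control), 265 and 255 (EZHIP), 227 and 237 (K27M) and 31.9 and 21.3 (EED-null). Its differences from control were 3.39 (EZHIP), 3.23 (K27M) and 0.15 (EED-null), and its EZHIP and K27M libraries were not called different (-0.17, SE 0.20, adjusted p = 0.46).

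Spn, the sialophorin CD43 of leukocytes, had values of 16.4 and 16.2 (control), 74.6 and 66.1 (EZHIP), 172 and 177 (K27M) and 23.6 and 38.8 (EED-null). K27M libraries were the highest (1.30, SE 0.23, adjusted p = 0.00218), and EED-null libraries stood above control by 0.89. Ano1, a calcium-activated chloride channel, had values of 122 and 142 (control), 339 and 369 (EZHIP), 309 and 392 (K27M) and 99.8 and 69.8 (EED-null). EZHIP and K27M libraries lay above control and overlapped, and EED-null libraries lay below control. Neto2, an accessory subunit of glutamate receptors, differed from control by 1.17 (EZHIP), 1.66 (K27M) and 0.01 (EED-null).

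**Figure D4:**
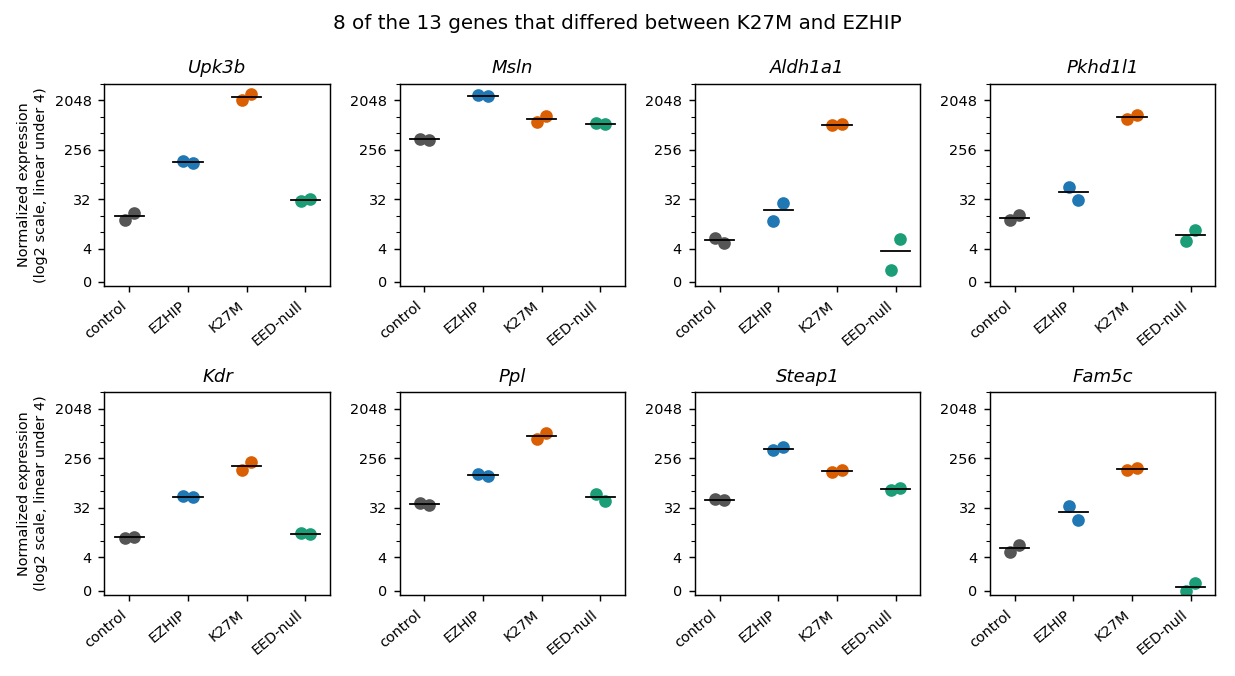
Normalized expression (vertical axis, log2 scale, linear under 4) of Upk3b, Msln, Aldh1a1, Pkhd1l1, Kdr, Ppl, Steap1 and Fam5c in the 4 groups, with a point per library and a bar at the group mean. K27M libraries are the highest in 6 panels, and EZHIP libraries are the highest for Msln and Steap1.

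The enzymes are 8 genes with medians of 1.45 (EZHIP), 2.21 (K27M) and 0.31 (EED-null). Aldh1a1, which makes retinoic acid, had values of 6.16 and 5.17 (control), 13 and 27.4 (EZHIP), 722 and 749.8 (K27M) and 1.39 and 5.95 (EED-null) (ENSMUSG00000053279.6, chr19:20676451-20717952, plus strand, mm9). K27M libraries stood 36.4-fold above EZHIP (5.21, SE 0.55, adjusted p = 0.000218), whereas EZHIP libraries differed from each other about as much as from control. Cyp26b1, which breaks retinoic acid down, had values of 15.4 and 10.3 (control), 61.5 and 49 (EZHIP), 38 and 28.8 (K27M) and 9.7 and 10.7 (EED-null). The order of the inhibitors was the opposite of that of Aldh1a1, with a difference of -0.71, SE 0.23, adjusted p = 0.0291, under 2-fold.

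Chst11, a chondroitin sulfotransferase, had values of 116 and 114 (control), 231 and 243 (EZHIP), 918 and 877 (K27M) and 222 and 210.3 (EED-null). EED-null and EZHIP libraries stood close together, and K27M libraries well above both (1.92, SE 0.10, adjusted p = 1.25e-05). Hk2, the hexokinase that many tumours use for glycolysis, had values of 154 and 94.5 (control), 315 and 286 (EZHIP), 603 and 614 (K27M) and 155 and 133.7 (EED-null). K27M libraries were again the highest (1.02, SE 0.23, adjusted p = 0.00722), but this call was lost after rescaling (0.88 on the log2 scale) and without EZHIP replicate 2 (0.95).

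Pde1a, a phosphodiesterase of cyclic nucleotides, had values of 1.03 and 0.738 (control), 28.4 and 22.8 (EZHIP), 15.8 and 14 (K27M) and 2.77 and 0.969 (EED-null). Control libraries held 2 reads in all, and the ratio to control was 29.8 (95% interval 7.76 to 253) in EZHIP and 17.3 (95% interval 4.42 to 149) in K27M cells (exact binomial intervals, for counting error only). Gch1, the first enzyme of tetrahydrobiopterin synthesis, differed from control by 1.64 (EZHIP), 2.13 (K27M) and 0.17 (EED-null). Cndp2, a cytosolic dipeptidase, differed by 1.03 (EZHIP), 1.41 (K27M) and 0.66 (EED-null). Acot2, a mitochondrial acyl-CoA thioesterase, differed by 1.12 (EZHIP), 1.06 (K27M) and 0.41 (EED-null), and was the member nearest to the K27M limit.

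Genes of the cytoskeleton and of trafficking are 6, with medians of 1.28 (EZHIP), 1.93 (K27M) and 0.53 (EED-null). Exoc6, a subunit of the exocyst that tethers vesicles, had values of 65.7 and 72.3 (control), 168 and 169 (EZHIP), 449 and 474 (K27M) and 146 and 93.5 (EED-null). It was the 1 gene of the 6 called higher in K27M than in EZHIP cells (1.45, SE 0.21, adjusted p = 0.000927), against 32.6% of all genes. Smtnl2, a smoothelin-like protein, had values of 20 and 17.8 (control), 86.8 and 74.1 (EZHIP), 135 and 148 (K27M) and 30.5 and 36.5 (EED-null). The order of its groups was control, EED-null, EZHIP and K27M, without overlap.

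Arhgap39, a GTPase-activating protein, had values of 121 and 108 (control), 244 and 236 (EZHIP), 232 and 256 (K27M) and 227 and 213 (EED-null). EZHIP and K27M libraries overlapped, and EED-null libraries lay just below both, with a difference from control of 0.94. Avil, the actin-binding protein advillin, differed from control by 2.24 (EZHIP), 1.47 (K27M) and -0.05 (EED-null). Mical2, which oxidizes actin and promotes transcription by serum response factor, differed by 1.28 (EZHIP), 1.92 (K27M) and 0.07 (EED-null). Wwc1, the Hippo pathway protein KIBRA, differed by 1.204 (EZHIP), 1.94 (K27M) and 0.27 (EED-null).

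Chromatin and developmental regulators are 4 genes, with medians of 1.26 (EZHIP), 1.76 (K27M) and 0.80 (EED-null). Pcgf5, a subunit of a variant PRC1 complex that ubiquitinates histone H2A, had values of 82.1 and 65.7 (control), 205 and 209.7 (EZHIP), 322 and 309 (K27M) and 129 and 117 (EED-null). The groups stood in the order control, EED-null, EZHIP and K27M without overlap. Hopx, a homeodomain protein that does not bind DNA, had values of 22.6 and 31.7 (control), 62.7 and 83.2 (EZHIP), 115 and 94.4 (K27M) and 15.2 and 21.3 (EED-null). Its EED-null libraries lay below control, unlike those of the other 3 genes.

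Sox12, a factor of neural and mesenchymal development, had values of 177 and 156 (control), 329 and 349 (EZHIP), 502 and 519 (K27M) and 329 and 287 (EED-null). It lies 49579 bases from Trib3 on chromosome 2 in mm9, the shortest distance between members, and its EED-null libraries were above control where those of Trib3 were below. Fam60a, a subunit of the Sin3 deacetylase complex, differed from control by 1.13 (EZHIP), 1.61 (K27M) and 0.91 (EED-null). The remaining 2 genes were Fam195a, which differed by 1.002 (EZHIP), 1.88 (K27M) and 0.05 (EED-null), and Ttc39c, which differed by 1.02 (EZHIP), 1.22 (K27M) and 0.66 (EED-null). Fam195a lies 109371 bases from Msln on chromosome 17. The 52 genes lie on 18 chromosomes, each at a single locus in the mm9 annotation, with at most 5 on a chromosome.

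The rule sets no order between K27M and EZHIP, so this contrast was tested, but both enter the rule. Its limit on K27M drops genes raised in EZHIP cells that stayed low in K27M cells. That leaves fewer genes that could be called lower in K27M cells. Of the 52 genes, 11 were called higher in K27M cells (Aldh1a1, Pkhd1l1, Upk3b, Fam5c, Ppl, Chst11, Kdr, Saa3, Exoc6, Spn and Hk2), against 32.6% of all 875 genes, and 2 were called lower (Msln and Steap1), against 26.2%. At 21.2% and 3.85% of the 52, both shares are below those over all genes, which include the genes that EZHIP lowered. Over the 495 genes higher in EZHIP cells, 17.8% were called higher and 40% lower in K27M cells. The median K27M minus EZHIP difference was 0.49 over the 52 genes and -0.67 over the 495 genes higher in EZHIP cells. Those 495 did not have to pass the K27M limit, so the gaps between the sets follow in part from the choice of the 52. By the adjusted p alone, 30 were higher (44.0% of all genes) and 6 lower (37.1%), so most of the differences that passed it were under 2-fold. The K27M rise over control was the larger in 38 genes, and in 33 after rescaling. Both K27M libraries lay above both EZHIP libraries in 34 genes (48.0% of all listed genes) and below in 13 (41.7%).

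**Figure D5:**
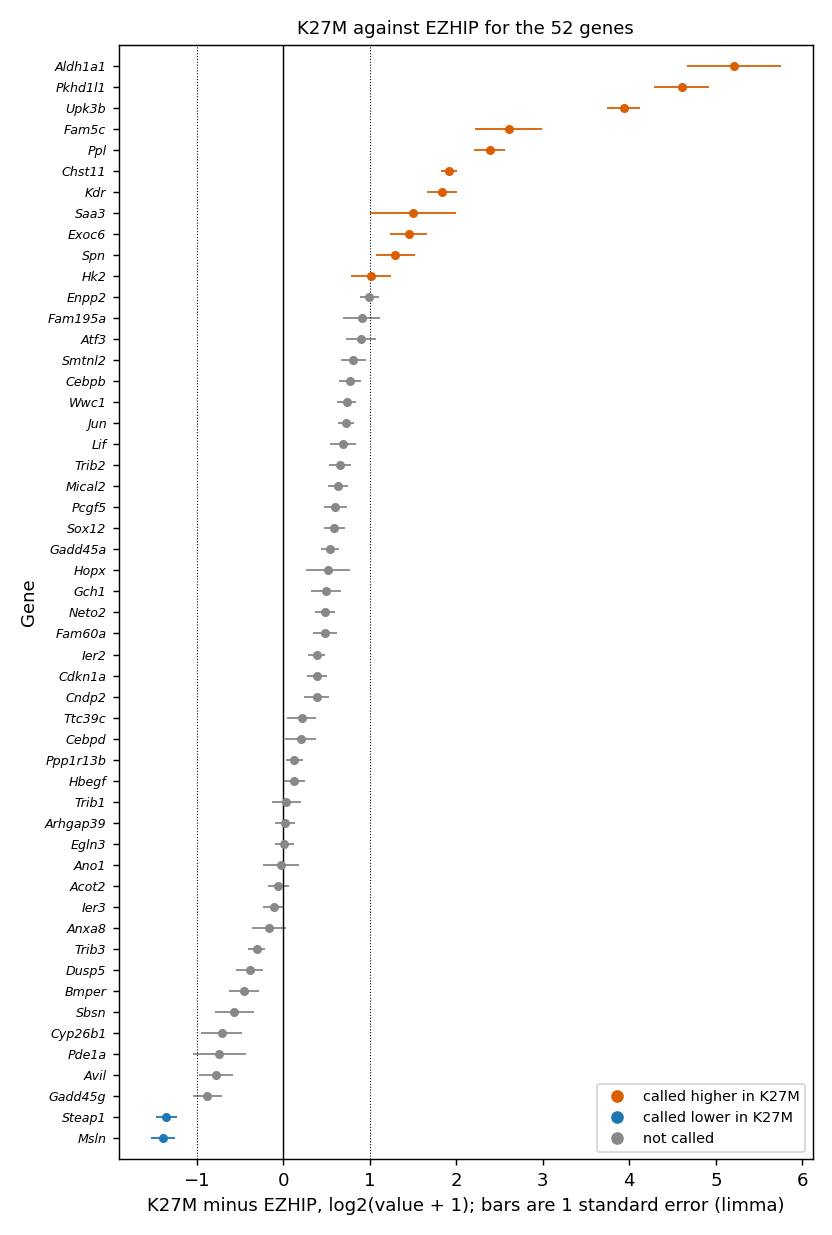
K27M minus EZHIP difference on the log2(value + 1) scale (horizontal axis) of each of the 52 genes, with bars of 1 standard error from limma and dotted lines at -1 and 1. The 11 genes called higher in K27M run up to 5.21 for Aldh1a1, and the 2 called lower, Msln and Steap1, stand at -1.39 and -1.35.

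Of 14 immediate early genes 12 were in the table, and only Jun, Ier2, Ier3 and Atf3 met the rule. EZHIP cells had all 12 called higher than control (56.0% of all genes), K27M cells 11 (41.4%) and EED-null cells 8 (39.9%), and the 8 were the genes outside the rule. Fos, the AP-1 partner of Jun, was one of them, with values of 172 and 202 (control), 1017 and 887 (EZHIP), 1231 and 1353 (K27M) and 740.3 and 768 (EED-null). Its differences from control were 2.34 (EZHIP), 2.78 (K27M) and 2.01 (EED-null). Egr1, a zinc finger factor of the same response, had values of 2725 and 2718 (control), 5857 and 5561 (EZHIP), 9813 and 10635 (K27M) and 7118 and 6473 (EED-null). The summed value of the 12 genes was 5195 to 5213 (control), 12925 to 13542 (EZHIP), 18190 to 19623 (K27M) and 11790 to 12507 (EED-null). The rule kept the 4 members under 2-fold in EED-null cells. Without them, the sum of the other 8 was 3533 to 3563 (control), 9157 to 9641 (EZHIP), 12771 to 14062 (K27M) and 9182 to 9908 (EED-null). EED-null and EZHIP sums then overlapped, but the rule also set which genes were left.

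Of 13 p53 targets 4 were in the table, and Cdkn1a alone met the rule. EZHIP cells had all 4 called higher than control (56.0% of all genes), K27M cells 3 (41.4%) and EED-null cells 2 (39.9%). Btg2, an antiproliferative gene of that list, differed from control by 1.39 (EZHIP), 1.67 (K27M) and 1.07 (EED-null), and Perp, a gene of cell death and desmosomes, by 2.13 (EZHIP), 2.37 (K27M) and 2.13 (EED-null). Of 16 inflammatory cytokine genes, Lif and Ptgs2 were in the table. Ptgs2, which encodes cyclooxygenase-2, differed by 2.65 (EZHIP), 2.14 (K27M) and 1.42 (EED-null). Among interferon-response genes 14 of 18 were listed, and none of these 14 met the rule.

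At the limits of the rule, Fam195a and Sox12 stood just inside that for EZHIP, with differences from control of 1.002 and 1.02. No gene that met the other 2 limits stood just under it, since the table was selected on this difference. At the K27M limit, Acot2 and Arhgap39 stood inside at 1.06 and 1.09, and Chac1 and Ahr outside at 0.99 and 0.97. Chac1, a glutathione-degrading target of the same amino acid response as Trib3, had values of 165 and 180.1 (control), 495 and 425 (EZHIP), 304 and 382 (K27M) and 77.6 and 52.3 (EED-null), and like Trib3 was lower in EED-null than in control libraries. At the EED-null limit, Hbegf and Saa3 stood inside at 0.9999 and 0.98, and Meox2 and Tnfsf15 outside at 1.01 and 1.03. After rescaling on the listed genes 31 genes met the rule, of which 23 are among the 52, and Upk3b, Anxa8, Kdr, Gadd45g and Lif are in both sets, whereas Jun, Atf3, Cdkn1a and Trib3 are not.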

How the data were processed

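RNA sequencing of MEFs in 8 libraries was analysed. The authors depleted ribosomal RNA, added RNA of another cell type to each sample, aligned reads to an mm9 transcriptome and estimated reads per gene with RSEM 1.2.4, as named in the submitters' processing notes. The deposited signal is a normalized value, estimated reads over a size factor for each library, restricted by the authors to genes at least 2-fold different between EZHIP and control. Whether the added RNA entered the size factors is not given in the sources used here, so differences in total RNA per cell may not show.

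Groups and replicate numbers came from the labels. Members were found by their rule on log2(mean + 1). Differences between group means were fitted to log2(value + 1) with limma 3.58.1 (R 4.3.3), pooling the spread over the 8 libraries. Benjamini-Hochberg adjustment covered all 875 genes, and a gene was called at an adjusted p under 0.05 and at least 2-fold. The fit was tested on simulated data. The value of 1 read was between 0.738 and 1.39 per library, from the steps of low values, and 3 reads per library were taken as the floor. Floors and folds over them cover counting error only. Of all values, 71.8% to 82.3% per library were whole reads within 0.005, too few for a test on counts.

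The members and lists were chosen with earlier results of these data known, and the roles and the mesothelial list after their values were seen. Rules named 27 members with values. They used the size of the shared rise, the lowest EED-null differences and the largest K27M minus EZHIP differences. The limits of the group and the fixed lists were used as well. Other members are given by role, many of them also with values. Genes of the lists outside the group, such as Fos and Wt1, were not chosen by these rules. The alternatives changed the pseudocount (0.1 or 5), dropped genes with a mean under 5, averaged log2 values, rescaled on the listed genes, left out each library, blocked on replicate number, fitted the compared groups by themselves, let limma's spread follow expression, or called on the adjusted p alone. Tables and figures were made with pandas 2.3.3, numpy 2.4.6 and matplotlib 3.10.9 under Python 3.11.15. Positions came from GENCODE on mm9 and promoters from RefSeq on GRCm38.p6. The other data of the study were not analysed here.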

Additional observations from a re-analysis of the deposited data

Results flagged for a closer look

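By limma, 13 of the 52 genes differed between the inhibitor lines. In K27M cells 11 were called higher (32.6% of all 875 genes) and 2 lower (26.2%). At 21.2% and 3.85% of the 52, both shares are below those over all genes. Among those higher, the difference on the log2(value + 1) scale was 5.21 for Aldh1a1, 4.61 for Pkhd1l1, 3.94 for Upk3b, 2.61 for Fam5c and 2.38 for Ppl, each with both K27M libraries above both EZHIP libraries. Those lower were Msln at -1.39 and Steap1 at -1.35, with both EZHIP libraries above both K27M libraries.

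In 7 genes, Fam5c, Trib3, Pkhd1l1, Cdkn1a, Ano1, Hopx and Bmper, both EED-null libraries lay below both control libraries while both EZHIP and both K27M libraries lay above them. Of all listed genes, 38.6% had both EED-null libraries below both control libraries. The choice of the genes used each of these differences, so limma's calls on them are a description, and the opposition itself was not tested. On the rescaled values, 18 genes had that EED-null order.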

How the results depend on the processing

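The number of genes that met the rule, 52, was 31 after rescaling on the listed genes, 49 and 57 with pseudocounts of 0.1 and 5, and between 44 and 53 with 1 library left out. With the adjusted p alone, 30 genes were higher and 6 lower in K27M than in EZHIP cells instead of 11 and 2, 44 instead of 29 were lower in EED-null than in both inhibitor lines, and 5 instead of 2 were lower in EED-null than in control cells, where the rule of 2-fold no longer applied. The number lower in EED-null than in control cells was also 1 with a pseudocount of 5, 3 with a pseudocount of 0.1, 5 after rescaling and 4 without EED-null replicate 2, where Aldh1a1 and Pkhd1l1 were added. Changes in the other direction occurred too. With a pseudocount of 0.1, Hbegf was over 2-fold higher in EED-null than in control cells (difference 1.01). With 1 library left out, so were Arhgap39, Exoc6, Fam60a, Hbegf, Ier3, Pde1a, Saa3, Spn, Trib1 and Upk3b, each in at least 1 setting. The difference reached 1.55 for Saa3 without EED-null replicate 1 and 1.14 for Upk3b without control replicate 2. For these genes, staying under the EED-null limit thus depends on the setting. Rescaling gave 10 genes higher and 3 lower in K27M than in EZHIP cells, without Hk2 and with Gadd45g. With 1 library left out, those counts were 10 to 12 and 2 to 2, the count lower in EED-null than in both inhibitor lines was 28 to 29, and the count lower than control was 2 to 4.

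Of the K27M minus EZHIP differences of 27 named genes under the alternatives, 391 values kept their direction and side of the threshold, 5 (Fam5c and Saa3) lost the call, 2 (Fam195a) gained it and 7 turned sign. The sign turned for Arhgap39 (0.02) to -0.12 and for Hbegf (0.13) to -0.014 after rescaling. With 1 library left out, it ranged from -0.19 to 0.15 for Ano1 (-0.02), from -0.049 to 0.094 for Arhgap39 and from -0.014 to 0.27 for Hbegf. The calls of Fam5c and Saa3 were lost with a pseudocount of 0.1 (adjusted p = 0.0658 and 0.331 by limma). The cause was not tested. Replicate numbers did not pair the samples, with correlations of deviations between -0.0893 and 0.105, and a replicate block left the counts at 11, 2, 29 and 2. Genes near the floor of 3 reads, such as Saa3, Pde1a, Fam5c and Aldh1a1, are the least precise.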
